A study of Mus musculus with 8 samples.

Results

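Collagen genes were followed in gonadal white fat of mice with and without Pex5 in adipose tissue. A gene counted as a collagen when a probe set carried 1 gene symbol and that symbol had the form of a collagen chain name, such as Col1a1; where a gene had several probe sets, the brightest on average was used. The rule found 42 collagen genes among the 18193 genes named on the array, of which 11 encode fibrillar collagens, 6 the basement membrane chains of type IV and 25 other collagens. It used no difference between groups. The 4 control arrays (wild type, replicates 1, 2, 3 and 4) and the 4 knockout arrays (aP2-Pex5 -/-, replicates 6, 8, 9 and 10) came from gonadal fat at 10 weeks of age, untreated and under normal conditions, with controls on a Swiss background; the sex of the mice and the background of the knockouts are not stated in the labels. Pex5 is the receptor that carries enzymes into the peroxisome, and aP2 names the promoter of the fatty acid binding protein gene Fabp4, which is active in adipocytes and is known to be active in macrophages too. How the deletion was made is not in the labels; the series states that the adipose tissue of the knockouts has no functional peroxisomes. No label states that each array stands for its own animal, so p-values cover only the spread among these samples, which may be technical.

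Collagens are trimers of chains that wind around each other through repeats with glycine at every turn, and the chains of one trimer are often encoded by different genes. Fibrillar collagens form the banded fibres that hold fat lobules together. Type IV collagen forms the sheet-like network of the basement membrane that wraps each adipocyte and each capillary, and type VI forms beaded filaments between that membrane and the fibres. Fibroblasts, adipocytes, endothelium, pericytes and mesothelium all make collagens, so bulk fat cannot tell fewer cells of a type from less collagen RNA per cell.

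Array medians ran from 6.44 to 6.52 on the log2 scale. The 8 adipocyte markers measured were at high level on every array, with a mean between 13.21 and 13.57 in controls and between 13.42 and 13.60 in knockouts. Pex5 itself read 9.52, 9.58, 9.34 and 9.06 in controls and 9.50, 9.27, 9.38 and 9.30 in knockouts, a difference of -0.014 (-0.29 to 0.27; limma adjusted p = 0.999). Which part of Pex5 was deleted, and whether this probe set lies in it, is not stated in the labels, so its level checks nothing about them, and groups are given as labelled. Knockout 6 stood apart in mesothelial markers, where the mean of 8 genes was 8.07 against 8.80 or more on every other array. The arrays also fell into 2 sets by the lower quartile of their values: controls 1 and 2 with knockouts 6 and 8 (set 1), and controls 3 and 4 with knockouts 9 and 10 (set 2). The sets are a feature of the deposited values and match the order of listing; no label explains them. Of the 42 collagen genes, 20 had a mean above the median of all genes (7.58), and 22 lay below it; these are called dim here, and no detection calls were used.

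No collagen gene passed the test of knockout against control in this gonadal fat. Of 42 genes, 0 passed a limma adjusted p of 0.05 over all genes, where 0.0% of 18193 genes passed, and the smallest adjusted p of a collagen was 0.999. At an unadjusted p under 0.05 there was 1 collagen, Col26a1, against 2.56% of all genes, so the collagen share was near the background. The groups did not overlap in 0 of 42 collagens, where 1.7% of all genes had groups that did not overlap. Of the collagens 24 read higher and 18 lower in knockout, with a median difference of 0.031, beside 46.7% higher and a median of -0.0082 over all genes. The interval of 95% reached 0.37 on either side of the difference in the median collagen, from 0.15 in Col25a1 to 1.36 in Col8a2, so that for 9 collagens a rise above 1.5-fold lies within the interval. A fall of more than 1.5-fold lies within it for Col4a6, Col8a1, Col8a2, Col14a1 and Col15a1. Over all genes the median half-width was 0.25.

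**Figure D1:**
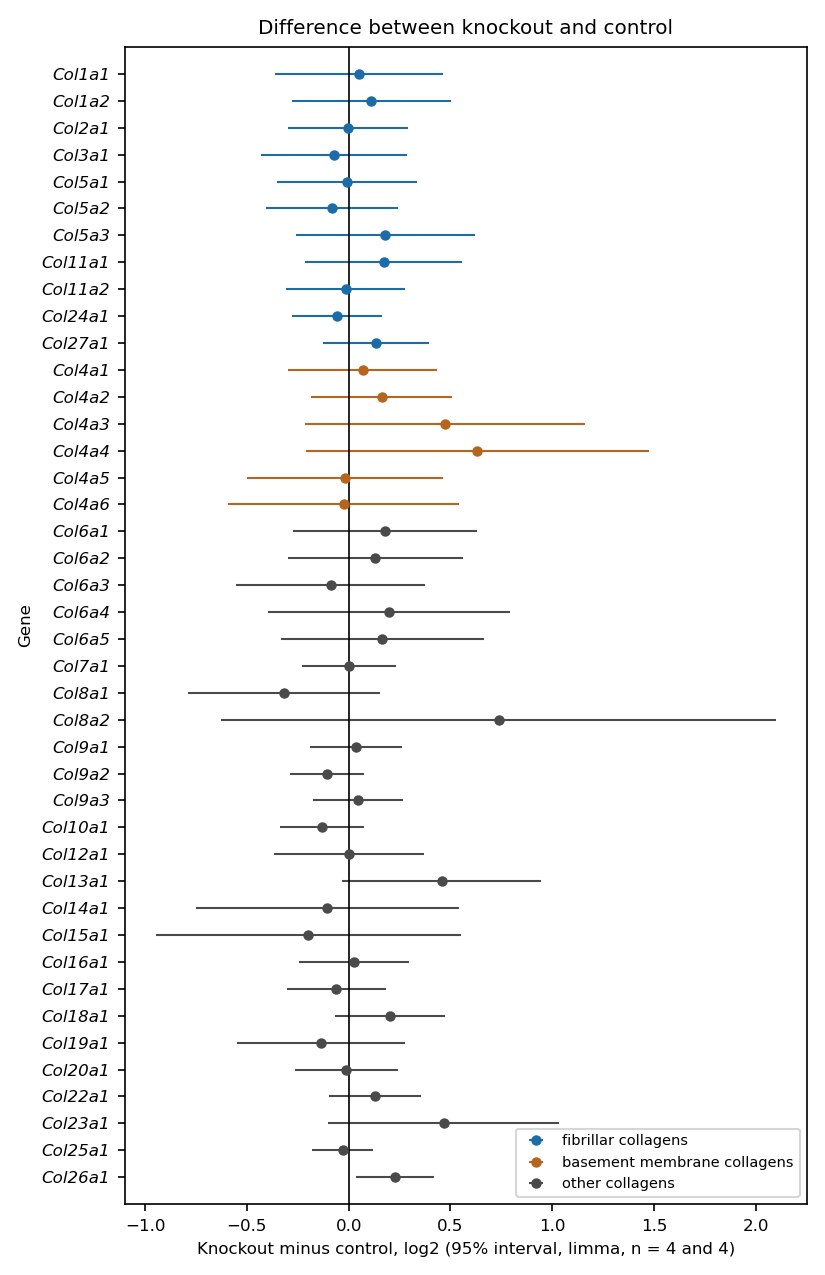
Difference between knockout and control for each of the 42 collagen genes on the log2 scale, as points with 95% limma intervals (4 arrays per group), coloured by class. Intervals of 41 genes span 0, and the widest belongs to Col8a2 at 0.74.

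The fibrillar collagens did not separate the groups. Their median difference was -0.0035, with 5 of 11 higher and 6 lower, and the range ran from -0.082 to 0.18. Col1a1, which encodes the major chain of type I collagen, read 10.43, 10.65, 10.65 and 11.23 in controls 1, 2, 3 and 4 and 10.75, 10.57, 11.08 and 10.75 in knockouts 6, 8, 9 and 10. Control 4 was the highest array and control 1 the lowest, with all knockouts between them. Its means were 10.74 ± 0.34 and 10.79 ± 0.21 (SD, n = 4 each), and the difference was 0.049 (95% interval -0.36 to 0.46, as for each interval given after a difference). Col1a2, the partner chain of type I, read 12.51, 12.76, 12.92 and 13.23 in controls and 12.62, 13.09, 13.04 and 13.11 in knockouts. Knockout 6 lay well below the other 3 knockouts and inside the control range. The difference was 0.11 (-0.28 to 0.50).

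Type III collagen, which shares fibres with type I in soft tissues, had a difference of like size with the opposite sign. Col3a1 read 13.12, 13.49, 13.57 and 13.74 in controls and 13.18, 13.30, 13.72 and 13.43 in knockouts, a difference of -0.073 (-0.43 to 0.29). Both groups spanned nearly the same range, with control 1 and knockout 6 lowest. Type V collagen regulates the width of type I fibres. Col5a1 read 10.38, 10.73, 10.96 and 10.44 in controls and 10.83, 10.40, 10.71 and 10.53 in knockouts, and the groups overlapped almost fully, with a difference of -0.0076 (-0.35 to 0.33). Its sign turned when the probe sets were averaged (0.064) or the arrays quantile normalised again (0.00065). Col5a2 read 11.04, 11.49, 11.68 and 11.27 in controls and 11.31, 11.09, 11.38 and 11.38 in knockouts, with a difference of -0.082 (-0.41 to 0.24). Control 3 was highest for both Col5a1 and Col5a2. Col5a3, the third type V chain, had 1 high array, knockout 6 at 12.24, where the other knockouts read between 11.39 and 11.62 and controls between 11.27 and 11.72.

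By unadjusted p the first 2 fibrillar genes were Col27a1 and Col11a1, and neither passed. Col27a1, a collagen best known from cartilage, read 7.63, 7.54, 7.53 and 7.77 in controls and 7.89, 7.94, 7.48 and 7.71 in knockouts, a difference of 0.14 (-0.12 to 0.40). Knockouts 6 and 8 were above all controls, while knockout 9 was below them. Col11a1, another cartilage collagen, was dim and read 4.54, 4.21, 4.57 and 4.87 in controls and 4.33, 4.84, 4.82 and 4.90 in knockouts, a difference of 0.17 (-0.21 to 0.56). Control 2 and knockout 6 were its lowest arrays. Col2a1, Col11a2 and Col24a1 were dim too and differed by -0.0035, -0.015 and -0.056.

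**Figure D2:**
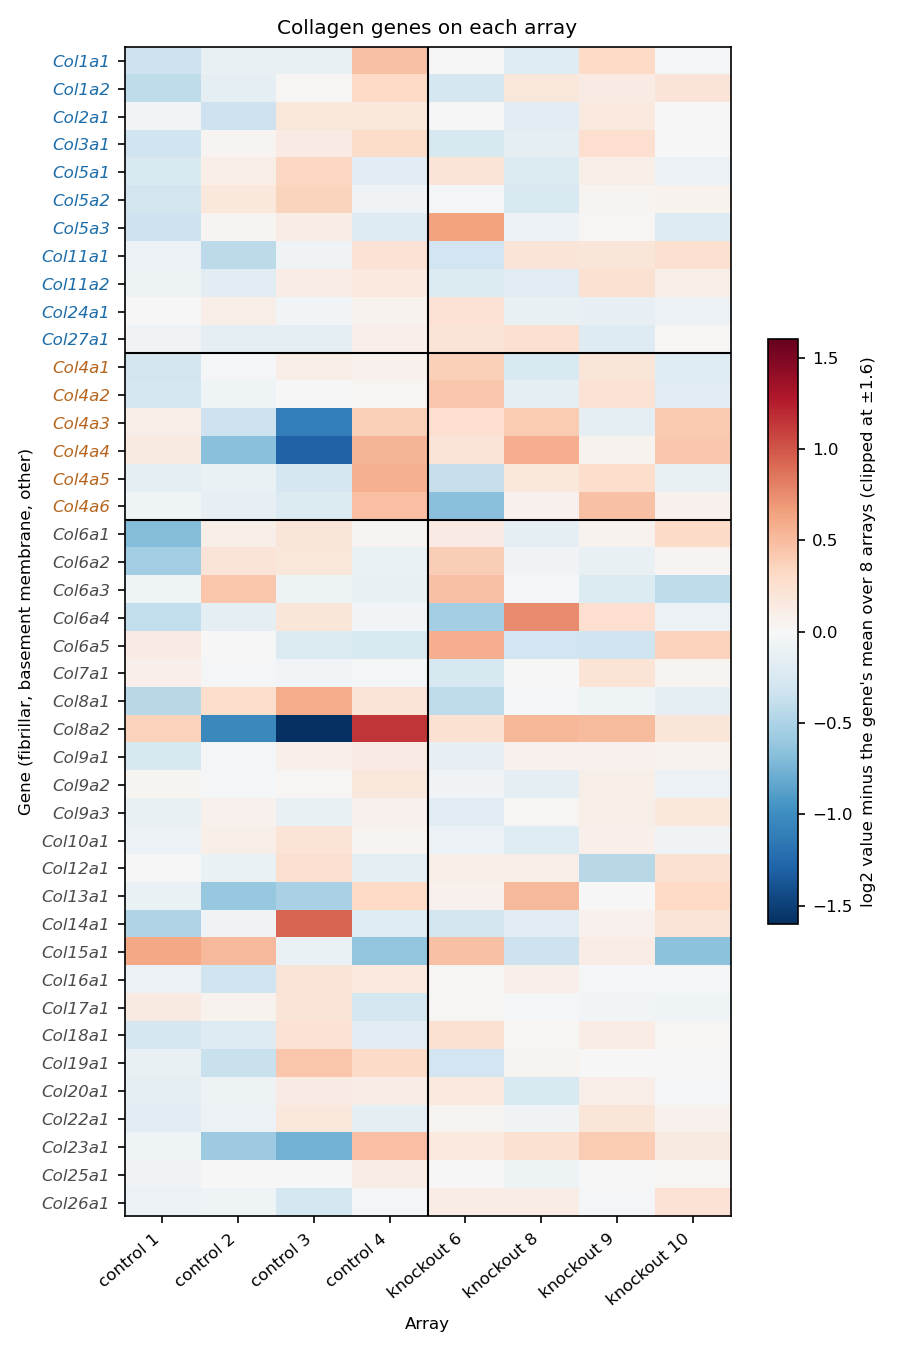
Log2 value of each collagen gene on each array minus the gene's mean over the 8 arrays, with controls left of the vertical line and knockouts right, and fibrillar, basement membrane and other collagens separated by horizontal lines. Col4a3, Col4a4, Col8a2, Col13a1 and Col23a1 are low on controls 2 and 3, and Col14a1 is high on control 3.

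The genes of the 6 chains of type IV collagen form 3 pairs. Each pair of genes is encoded head to head on a chromosome, Col4a1 with Col4a2 on 8, Col4a3 with Col4a4 on 1 and Col4a5 with Col4a6 on X, with no protein-coding gene between the partners in RefSeq. Promoter windows of Col4a1, Col4a2 and Col4a4 are shown because the partner genes lie so close. The part of these windows in the collagen values was not tested. The windows of Col4a1 and Col4a2 share bases. No window was available for Col4a3. Each window runs from 250 bases before to 50 after a gene's start in RefSeq on GRCm38.p6 (5′ to 3′ on the gene's strand). In the windows of Col4a1 (chr8:11312777-11313076, minus strand) and Col4a2 (chr8:11312555-11312854, plus strand), capitals mark the 78 bases that lie in both windows, read from opposite strands. In the Col4a4 window (chr1:82586800-82587099, minus strand), capitals mark the 114 bases that RefSeq gives to both Col4a4 and Col4a3.
Col4a1: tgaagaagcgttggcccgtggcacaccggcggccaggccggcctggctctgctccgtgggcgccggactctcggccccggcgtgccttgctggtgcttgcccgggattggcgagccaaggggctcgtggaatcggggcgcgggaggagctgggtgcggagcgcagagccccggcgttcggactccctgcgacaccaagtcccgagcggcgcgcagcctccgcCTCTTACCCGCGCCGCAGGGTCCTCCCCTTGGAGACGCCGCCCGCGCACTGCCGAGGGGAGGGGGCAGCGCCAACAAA
Col4a2: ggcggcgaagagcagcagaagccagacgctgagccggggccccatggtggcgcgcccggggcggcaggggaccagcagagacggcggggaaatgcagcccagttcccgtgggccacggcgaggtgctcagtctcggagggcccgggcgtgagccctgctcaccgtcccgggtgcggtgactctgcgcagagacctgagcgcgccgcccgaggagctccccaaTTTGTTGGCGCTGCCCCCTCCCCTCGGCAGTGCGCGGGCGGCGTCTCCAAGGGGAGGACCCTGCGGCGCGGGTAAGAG
Col4a4: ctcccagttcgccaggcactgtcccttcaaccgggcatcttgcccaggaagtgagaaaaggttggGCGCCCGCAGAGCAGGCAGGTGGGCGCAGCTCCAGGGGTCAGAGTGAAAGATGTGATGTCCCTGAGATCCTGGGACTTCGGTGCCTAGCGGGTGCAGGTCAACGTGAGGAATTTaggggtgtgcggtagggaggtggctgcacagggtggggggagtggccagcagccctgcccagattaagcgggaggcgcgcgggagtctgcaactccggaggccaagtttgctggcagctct

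Simple promoter motifs were searched on both strands, each by its letters, in 36 windows of 33 collagen genes. GGGCGG, a core of GC boxes, occurred in 22 of these windows (61.1%) and in 35.7% of all 32851 windows in the table. CCAAT occurred in 36.1% and 37.4%, and TATAAA in 13.9% and 13.6%. Col4a1 and Col4a2 each held GGGCGG and CCAAT, and neither held TATAAA; the Col4a4 window held none of the 3. Matches to letters are a description of the windows and do not show binding.

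Col4a1 and Col4a2, the chains found in all basement membranes, overlapped between groups. Col4a1 read 12.69, 12.97, 13.09 and 13.05 in controls and 13.37, 12.74, 13.18 and 12.79 in knockouts, a difference of 0.069 (-0.30 to 0.43). Its direction turned within set 2 (-0.087). Col4a2 read 11.67, 11.88, 11.94 and 11.99 in controls and 12.38, 11.80, 12.18 and 11.77 in knockouts, a difference of 0.16 (-0.18 to 0.51). For both genes knockouts 6 and 9 were above all controls and knockouts 8 and 10 in the lower part of the control range. Col4a5 and Col4a6, X-linked chains of specialised and smooth muscle basement membranes, differed by -0.019 (-0.50 to 0.46) and -0.024 (-0.59 to 0.54). Col4a6 read 7.84, 7.78, 7.69 and 8.39 in controls and 7.24, 7.99, 8.38 and 7.99 in knockouts. Here knockout 6 was the lowest array of all, opposite to its place for Col4a1 and Col4a2.

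Col4a3 and Col4a4, chains of the basement membranes of kidney, lung and other epithelia, had the 2 smallest unadjusted p-values among type IV genes, and neither passed. Col4a4 read 9.11, 8.30, 7.66 and 9.51 in controls and 9.17, 9.54, 9.01 and 9.39 in knockouts. Controls 2 and 3 were below every knockout, while control 1 lay within the knockout range and control 4 just under its top. The means were 8.64 ± 0.83 and 9.28 ± 0.23 (SD, n = 4 each), a difference of 0.63 (-0.21 to 1.47). Col4a3 was dim and read 7.31, 6.88, 6.11 and 7.59 in controls and 7.48, 7.62, 7.06 and 7.64 in knockouts, a difference of 0.47 (-0.21 to 1.16). The same 2 controls were low in each of the 5 probe sets of these genes.

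The largest spread among all 42 collagens was in Col8a2, which was dim and was picked out after its values were seen. It encodes a chain of type VIII collagen, a short network collagen of vessels and of the membrane under the corneal endothelium. Col8a2 read 7.16, 5.76, 4.84 and 7.94 in controls and 7.04, 7.33, 7.30 and 6.98 in knockouts. Controls ran over 3.10 log2 units, or 8.58-fold, with the lowest and the highest of the 8 arrays both among them, while the 4 knockouts lay close together. The means were 6.43 ± 1.39 and 7.16 ± 0.18 (SD, n = 4 each), a difference of 0.74 (-0.63 to 2.10).

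Among the transmembrane collagens, Col13a1 and Col23a1, both dim, had the same low controls. Col13a1, found at cell contacts and at the neuromuscular junction, read 5.48, 4.98, 5.07 and 5.91 in controls and 5.66, 6.11, 5.59 and 5.91 in knockouts, a difference of 0.46 (-0.034 to 0.95). Col23a1 read 6.50, 5.98, 5.81 and 7.04 in controls and 6.72, 6.81, 6.97 and 6.71 in knockouts, a difference of 0.47 (-0.10 to 1.03). For both, controls 1, 2 and 3 were below all knockouts, with controls 2 and 3 farthest, and control 4 stood inside or above the knockout range. The other 2 transmembrane genes, Col17a1, a chain of the epithelial hemidesmosome, and Col25a1, differed by -0.062 and -0.029. A second probe set of Col25a1 read 3.76 and 3.93 on controls 2 and 3 and between 4.32 and 5.26 elsewhere, while the one used for the gene ran over only 0.20 log2 units.

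Markers of the neighbouring reproductive tract varied over the same arrays. Of 9 listed, 8 were measured, and their mean was 7.35, 5.72, 4.84 and 6.38 in controls and 6.40, 8.25, 6.02 and 6.79 in knockouts. Controls 2 and 3 were the lowest arrays of the list as well. Ovgp1, an oviduct glycoprotein gene in that list, read 6.11, 5.69, 5.20 and 6.38 in controls and 6.19, 6.39, 5.94 and 6.20 in knockouts, with controls 2 and 3 again the lowest. Other members had another order: Lcn8, a lipocalin of the epididymis, was at 11.02 on knockout 8 and at most 4.75 elsewhere. Greb1, a target of the oestrogen receptor, read 9.35, 7.92, 4.92 and 9.57 in controls and 9.69, 10.12, 9.13 and 9.85 in knockouts, again lowest on controls 2 and 3. Pgr, the progesterone receptor, was dim and differed by 0.52 (0.031 to 1.02). The part of these genes in the collagen values was not tested. RNA quality, read as the 3′ minus 5′ difference of the pyruvate carboxylase control probe sets, was 3.97 and 4.83 on controls 1 and 4 and 1.59 and 2.08 on controls 2 and 3, and 2.10, 1.77, 4.65 and 1.6 in knockouts. With it as a covariate the difference was 0.75 for Col4a4 and 1.02 for Col8a2.

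Single controls moved the differences of these genes. Without control 4, 7 collagens reached an unadjusted limma p under 0.05 (Col4a3, Col4a4, Col8a2, Col13a1, Col17a1, Col23a1 and Col26a1), where 8.61% of all genes did. Of these collagens 0 passed over all genes. Col17a1 was lower in knockout, at 5.49, 5.42 and 5.56 on controls 1, 2 and 3 and from 5.29 to 5.38 in knockouts. With array weights the count under an unadjusted limma p of 0.05 was 4 (5.71% of all genes), and with an RNA quality covariate 3 (3.7%). Without control 4 the difference was 0.92 for Col4a4, 0.68 for Col4a3, 1.24 for Col8a2 and 0.70 for Col23a1. Without control 3 these were 0.31, 0.19, 0.21 and 0.29.

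**Figure D3:**
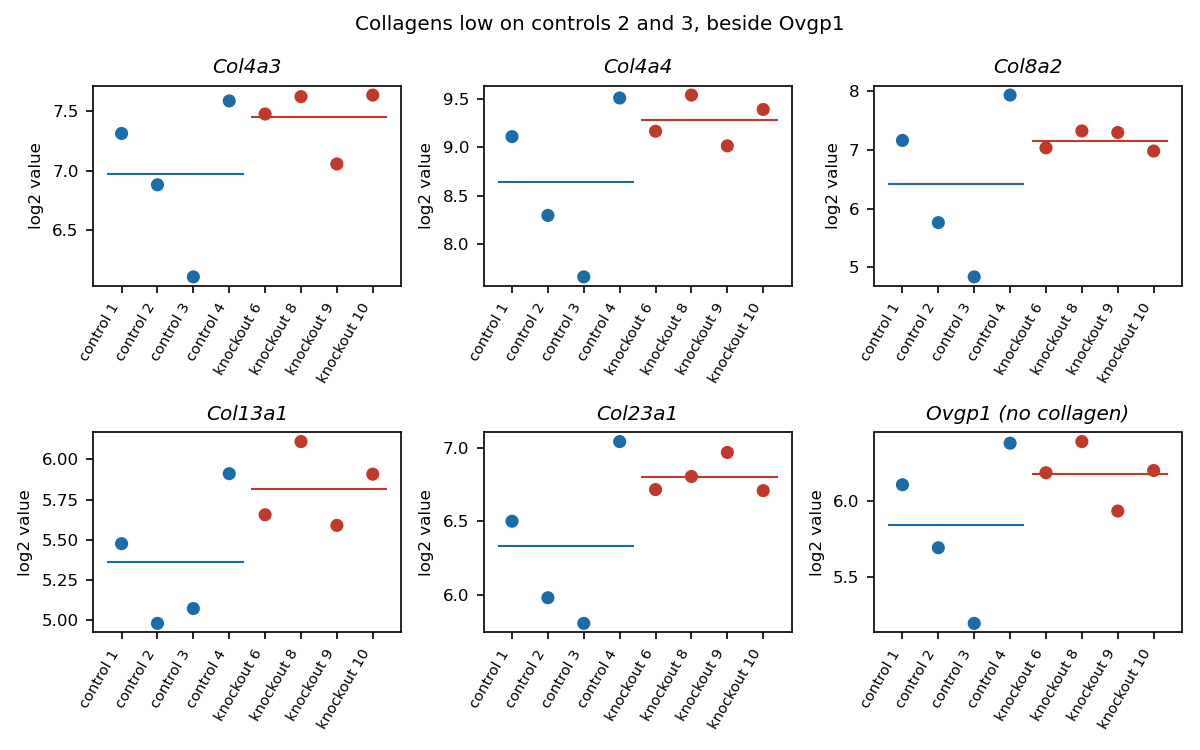
Log2 value on each array of Col4a3, Col4a4, Col8a2, Col13a1 and Col23a1 and of Ovgp1, which is no collagen, with controls in blue, knockouts in red and group means as lines. In each panel controls 2 and 3 are the lowest arrays. Only Col4a4 had a mean above the median of all genes. The y axes differ and do not start at 0.

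No gene of type VI collagen, which lies next to adipocytes, passed. Col6a1 read 10.96, 11.75, 11.85 and 11.69 in controls and 11.79, 11.51, 11.71 and 11.96 in knockouts, a difference of 0.18 (-0.27 to 0.63). Control 1 was far below the other 7 arrays. Col6a2 read 11.03, 11.80, 11.78 and 11.48 in controls and 11.98, 11.53, 11.47 and 11.64 in knockouts, with control 1 again lowest and knockout 6 highest, and a difference of 0.13 (-0.30 to 0.56). Without control 1 the differences were -0.021 and -0.032. Col6a3, whose chain gives rise to the fragment endotrophin, read 11.38, 11.89, 11.37 and 11.33 in controls and 11.92, 11.42, 11.23 and 11.05 in knockouts, a difference of -0.089 (-0.55 to 0.38). Control 2 and knockout 6 stood above the other 6 arrays. Col6a4 was dim and read 5.40, 5.64, 5.998 and 5.76 in controls and 5.26, 6.56, 6.07 and 5.71 in knockouts, with knockout 8 highest and knockout 6 lowest, a difference of 0.20 (-0.40 to 0.79). Col6a5, also dim, differed by 0.17.

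The multiplexins Col15a1 and Col18a1 are basement membrane zone collagens that release anti-angiogenic fragments. Col15a1 read 11.44, 11.34, 10.71 and 10.19 in controls and 11.28, 10.49, 10.93 and 10.17 in knockouts. Controls 1 and 2 with knockout 6 were highest, and control 4 and knockout 10 lowest, so the order crossed the groups. The difference was -0.20 (-0.95 to 0.55) and, with 1 array left out at a time, lay between -0.44 and -0.016. Col18a1 read 9.74, 9.80, 10.24 and 9.84 in controls and 10.25, 10.02, 10.13 and 10.03 in knockouts, a difference of 0.20 (-0.069 to 0.47). All knockouts were above controls 1, 2 and 4, and control 3 was near the top; without control 3 the difference was 0.31.

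Fibril-associated collagens, which sit on the surface of fibres, had a median difference of 0.0039 over 9 genes, with 5 higher and 4 lower. Col9a2 and Col22a1, both dim, had the smallest unadjusted p-values. Col9a2, a chain of the type IX collagen of cartilage, read 4.87, 4.79, 4.86 and 5.02 in controls and 4.77, 4.67, 4.92 and 4.74 in knockouts, a difference of -0.11 (-0.29 to 0.077). Col22a1, a collagen of tissue junctions, read 5.85, 5.94, 6.21 and 5.88 in controls and 6.08, 5.98, 6.23 and 6.11 in knockouts, a difference of 0.13 (-0.095 to 0.36). Knockouts 6, 8 and 10 were below all controls for Col9a2, and control 1 was lowest for Col22a1. Col14a1, a collagen of fibroblasts in loose tissue, had its highest array in control 3 at 10.15, where the other 7 arrays lay between 8.74 and 9.43. The 2 other probe sets of Col14a1 were highest on control 3 too, at 9.06 and 7.37. Control 3 also had the highest mean of 11 fibroblast markers, 9.52, beside 9.07 to 9.38 elsewhere, and of 9 macrophage markers, 10.60; their part in the Col14a1 value was not tested. Col12a1, Col16a1 and Col20a1 differed by 0.0039, 0.027 and -0.011, and Col9a1 and Col9a3 by 0.036 and 0.045.

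Col8a1 and Col10a1, both network collagens, had differences below 0 that did not pass. Col8a1, a chain of type VIII, read 7.93, 8.66, 8.97 and 8.58 in controls and 7.97, 8.36, 8.32 and 8.23 in knockouts. Control 1 was the lowest array, while the other 3 controls were above all knockouts. The difference was -0.32 (-0.79 to 0.15) and became -0.52 without control 1 (limma adjusted p = 0.999). Controls 2 and 3 were thus the highest arrays for Col8a1 and the lowest for its partner Col8a2. Col10a1, known from growth plate cartilage and dim here, read 5.12, 5.30, 5.44 and 5.26 in controls and 5.12, 5.02, 5.29 and 5.16 in knockouts, a difference of -0.13 (-0.34 to 0.077), with control 3 highest and knockout 8 lowest. Among the remaining genes Col26a1 read 4.52, 4.55, 4.34 and 4.60 in controls and 4.74, 4.74, 4.60 and 4.85 in knockouts. Knockout 9 and control 4 read the same to 2 decimals, and the other knockouts were above all controls. The difference was 0.23 (0.034 to 0.42; limma adjusted p = 0.999) at a dim signal; a second probe set differed by -0.027. Col7a1, the anchoring fibril collagen of skin, read 7.09, 6.99, 6.98 and 7.001 in controls and 6.76, 7.02, 7.23 and 7.06 in knockouts, where knockout 6 was lowest and knockout 9 highest, and differed by 0.0029 (-0.23 to 0.23).

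Partner chains of one trimer were compared over the 8 arrays in 12 pairs taken from known trimers and fibres. Col4a1 and Col4a2 had a Pearson r of 0.96 (Spearman rho 0.95; two-sided exact permutation p = 9.92e-05 and 0.00114; adjusted over 12 pairs 0.000744 and 0.00893). For Col4a3 and Col4a4 r was 0.97 and rho 0.93 (exact permutation p = 0.000124 and 0.00223; adjusted 0.000744 and 0.00893). For Col4a5 and Col4a6 r was 0.90 and rho 0.93 (exact permutation p = 0.00141 and 0.00223; adjusted 0.00565 and 0.00893). Of the 12 pairs these 3, which lie head to head, had the highest r. Without the 2 arrays farthest from the median of the first gene r was 0.91, 0.88 and 0.80, and these 6 arrays gave adjusted exact permutation p-values of 0.0667, 0.0667 and 0.317. A set of 4 arrays is too few for a correlation within it; with group and set means subtracted r was 0.99, 0.97 and 0.89. Over all pairs of the 42 collagens the median r was 0.099, with quartiles of -0.23 and 0.43. Col4a4 was low on controls 2 and 3 together with Col8a2 and Col23a1, which are not its partners. Pairs beyond the 12 were not tested, so these values do not show that a high r is particular to partners.

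Fibrillar partners had lower r on the 8 arrays than the type IV pairs. For Col5a1 and Col5a2 r was 0.84 and rho 0.83 (exact permutation p = 0.00702 and 0.0154; adjusted 0.0211 and 0.0461), and r was 0.63 without controls 1 and 3. With group and set means subtracted it was 0.90, above that of Col4a5 and Col4a6. For Col1a1 and Col3a1 r was 0.80 and rho 0.69 (exact permutation p = 0.016 and 0.0694, adjusted 0.0385 and 0.139). Without control 4 and knockout 9 this r was 0.42, and with group and set means subtracted 0.68. Leaving out the arrays farthest from the median narrows the range of values, so a lower r does not show that a relation rests on those arrays. For Col1a1 and Col1a2 r was 0.65 and rho 0.52 (exact permutation p = 0.0831 and 0.197; adjusted 0.125 and 0.295), which did not pass, and 0.39 without control 4 and knockout 9. Col3a1 and Col5a2, neighbours on chromosome 1, had r 0.54 and rho 0.45 (exact permutation p = 0.168 and 0.267; adjusted 0.202 and 0.357), with r 0.55 on 6 arrays. The difference between correlations was not tested.

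Within type VI, Col6a1 and Col6a2, neighbours on chromosome 10, had r 0.82 and rho 0.69 (exact permutation p = 0.0217 and 0.0694; adjusted 0.0433 and 0.139). Without control 1 and knockout 10 r was 0.62, and with group and set means subtracted 0.96. The third chain did not follow: r of Col6a1 and Col6a3 was -0.00077 and rho -0.21 (exact permutation p = 0.999 and 0.619; adjusted 0.999 and 0.619). On 6 arrays this r was 0.26, and with group and set means subtracted it was 0.78. No p-value is given for the latter, because values with fitted means subtracted are no longer free to be reordered. Col6a1 read 0.30 higher in set 2, and Col6a3 differed by -0.41. The other 3 pairs did not pass. Col8a1 with Col8a2 had r -0.63 and rho -0.26 (exact permutation p = 0.0971 and 0.536; adjusted 0.13 and 0.585), with r -0.21 on 6 arrays. Col9a1 with Col9a2 had r 0.15 and rho 0.31 (exact permutation p = 0.725 and 0.45; adjusted 0.79 and 0.54), with r 0.49 on 6 arrays. For the cartilage chains Col11a1 and Col11a2 there was r 0.66 and rho 0.60 (exact permutation p = 0.0772 and 0.132; adjusted 0.125 and 0.227), with r 0.26 on 6 arrays.

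**Figure D4:**
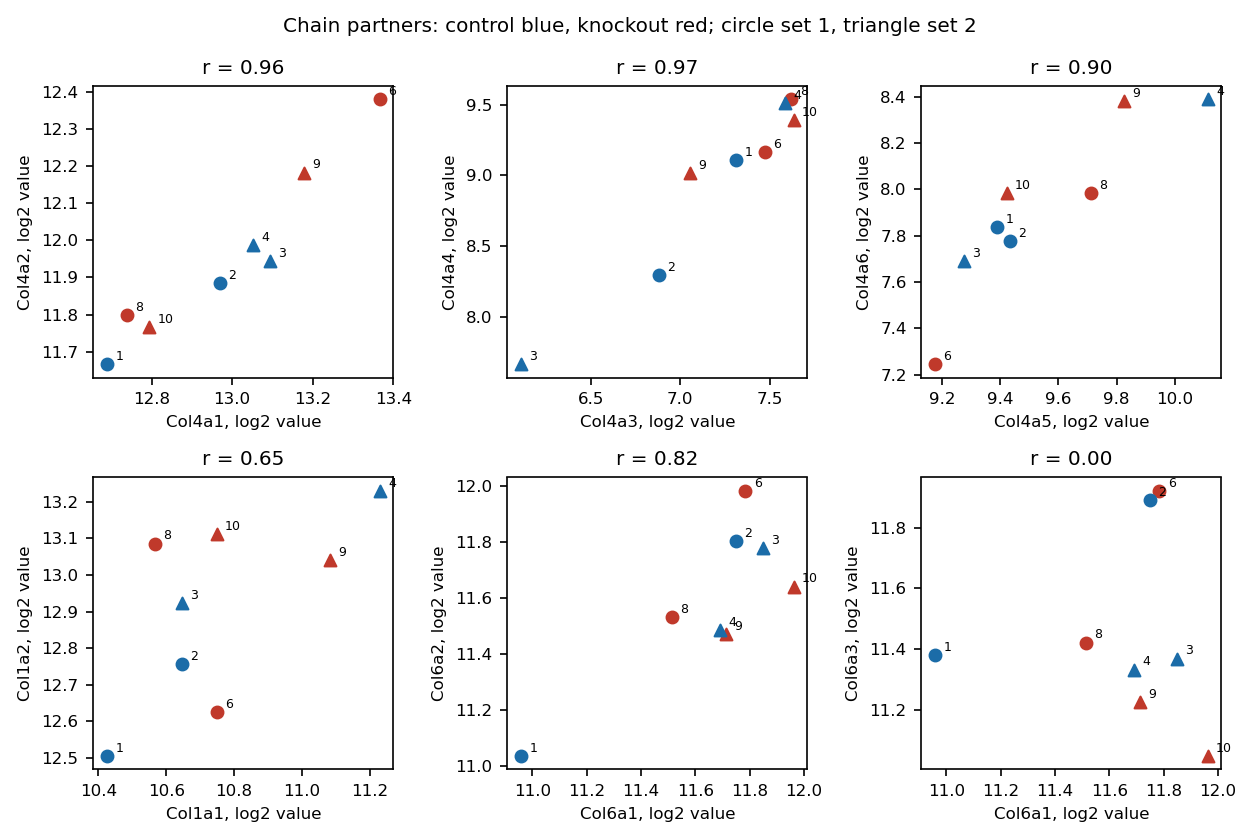
Log2 value of one collagen chain against its partner on the 8 arrays for 6 pairs, with controls in blue, knockouts in red, circles for set 1, triangles for set 2 and the replicate number beside each point. The 3 head-to-head type IV pairs in the top row lie along a line (r from 0.90 to 0.97), whereas Col6a1 and Col6a3 do not.

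No collagen passed the test between the array sets either. With genotype in the model, 7 of 42 collagens differed between the sets at an unadjusted limma p under 0.05, where 21.2% of all genes did, and 0 passed after adjustment, where 0.033% did. The sets were themselves drawn from the array values. Set 2 minus set 1 was 0.34 for Col3a1, 0.33 for Col1a2, 0.32 for Col11a2, 0.27 for Col2a1 and 0.37 for Col19a1, and -0.64 for Col15a1 and -0.41 for Col6a3. Of the fibrillar genes 8 of 11 were higher in set 2, and of all collagens 30 of 42, beside 54.6% of all genes.

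Within set 1 the knockouts read higher than controls in 30 of 42 collagens, and within set 2 in 18 of 42. Over all genes the shares were 45% and 53.4%. The median collagen difference was 0.11 in set 1 and -0.032 in set 2, with 2 arrays per group in each set. The genotype difference was higher in set 1 for 10 of 11 fibrillar genes, where 45.0% of all genes had that order. By the interaction of genotype and set, 0 of 42 collagens passed (0.0% of all genes), and 1 was under an unadjusted p of 0.05 (3.24% of all genes). That gene, Col16a1, differed by 0.25 in set 1 and -0.20 in set 2 (limma adjusted p = 1). It read 8.13, 7.90, 8.43 and 8.38 in controls and 8.24, 8.30, 8.21 and 8.20 in knockouts, with controls 1 and 2 below the knockouts and controls 3 and 4 above them. Next came Col19a1, a fibril-associated collagen that was dim here, at 0.10 and -0.38, with values of 4.20, 3.96, 4.76 and 4.62 in controls and 4.01, 4.36, 4.32 and 4.31 in knockouts and a difference over both sets of -0.14. Controls 3 and 4 were its highest arrays. Col27a1 differed by 0.33 and -0.059. Col4a3, Col4a4, Col8a2 and Col23a1 had differences of like size in both sets, each of which held 1 of the 2 low controls, while Col13a1 differed by 0.66 and 0.26.

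**Figure D5:**
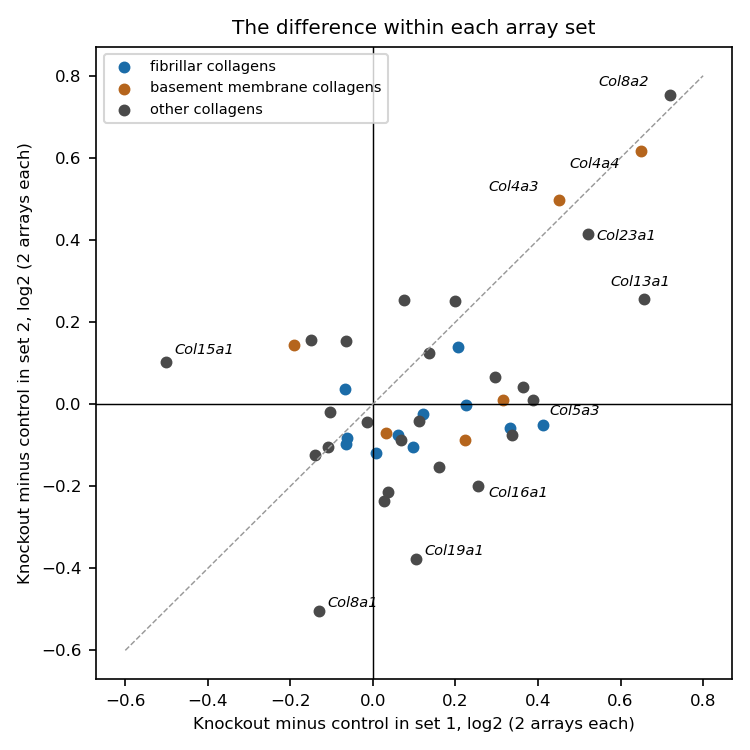
Knockout minus control on the log2 scale within set 1 (x axis) and within set 2 (y axis) for the 42 collagen genes, coloured by class, with 2 arrays per group in each set and the dashed line marking equal differences. Most fibrillar genes lie below the line, and Col4a3, Col4a4 and Col8a2 lie near it.

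The choice of probe set mattered for the sign of small differences. Of the 42 genes 27 had more than 1 probe set, and for 11 genes they disagreed on the sign (Col1a2, Col4a1, Col5a1, Col6a4, Col12a1, Col14a1, Col19a1, Col20a1, Col22a1, Col25a1 and Col26a1). Over all 82 collagen probe sets 0 passed and 1 was under an unadjusted limma p of 0.05, beside 2.53% of 45037 probe sets.

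Genes that make, process and bind collagens did not pass either. Of 17 measured genes of collagen modification and folding 5 were higher and 12 lower (median -0.027), with P4ha2, a prolyl hydroxylase subunit, at 0.20 (-0.028 to 0.42) and P3h4, a scaffold of the prolyl 3-hydroxylase complex, at -0.32 (-0.72 to 0.080). Of 13 genes of export and propeptide removal 8 were lower (median -0.042). Mia2, an export factor of the endoplasmic reticulum, read 4.98, 4.65, 4.54 and 4.94 in controls and 5.47, 5.65, 5.05 and 5.35 in knockouts, with all knockouts above all controls. It differed by 0.60 (0.25 to 0.95; limma adjusted p = 0.999) and is dim here; Mep1a, a meprin protease, differed by 0.21. In the crosslinking list of 4 genes Lox and Loxl1, which oxidise lysines for crosslinks, differed by 0.31 (-0.10 to 0.73) and 0.30 (-0.064 to 0.66). Of 8 receptors and uptake genes 4 were higher, with the receptor kinase Ddr1 at 0.21 (-0.020 to 0.45) and the inhibitory receptor Lair1 at -0.13.

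Of 15 proteins that bind fibrils 9 were higher (median 0.014), with Prelp at 0.34 (-0.088 to 0.77) and Postn, periostin, at -0.22 (-0.62 to 0.18). Of 14 laminins and other partners of type IV collagen 11 were higher (median 0.098), with Hspg2, perlecan, at 0.24 (-0.051 to 0.53) and Lama5 at 0.23. Of 14 genes of TGF-beta signalling, a main inducer of collagens, 10 were higher (median 0.032). Tgfb1 read 8.69, 8.81, 8.63 and 8.77 in controls and 8.64, 8.45, 8.43 and 8.46 in knockouts, a difference of -0.22 (-0.40 to -0.051), and Skil, a repressor that the pathway induces, differed by 0.28 (0.064 to 0.50). Both had a limma adjusted p of 0.999. The count past an adjusted p of 0.05 was 0 in every one of these lists.

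List means of cell type markers overlapped between the groups. The mean of 11 fibroblast markers ran from 9.07 to 9.52 in controls and from 9.10 to 9.38 in knockouts, and Pi16, a marker of fibroblast progenitors, differed by 0.44. Dlk1, a preadipocyte gene, read 6.04, 6.03, 5.91 and 5.93 in controls and 5.63, 5.56, 5.23 and 5.58 in knockouts, without overlap, and differed by -0.48 (-0.70 to -0.25; limma adjusted p = 0.999). The 8 mesothelial markers ran from 8.80 to 9.18 and from 8.07 to 9.35, with 3 genes higher and 5 lower in knockout (median -0.29). Against most of this list, Krt19, a keratin, was higher in knockout. It read 9.79, 9.20, 9.77 and 9.80 in controls and 9.89, 10.32, 9.88 and 10.23 in knockouts, without overlap. The difference was 0.44 (0.060 to 0.82, limma adjusted p = 0.999), and Lrrn4 differed by -0.70. For 8 smooth muscle and pericyte markers the ranges were 8.76 to 9.41 and 9.15 to 9.36, with 6 genes higher and 2 lower in knockout. Cnn1, calponin, read 7.20, 6.21, 6.15 and 7.84 in controls and 7.44, 8.02, 7.13 and 7.43 in knockouts. It was lowest on controls 2 and 3 like Col4a4. The list mean had another order, at 8.92, 8.76 and 8.93 on controls 1, 2 and 3. Lmod1 differed by 0.34. The 8 endothelial markers ran from 9.75 to 10.29 and from 9.89 to 10.18, highest on control 3 and knockout 6. Of these genes 2 were higher in knockout, Gpihbp1 by 0.18 and Ramp2 by 0.056, and 6 were lower (median -0.019). Of the adipocyte markers the leptin gene Lep differed by 0.52 and the resistin gene Retn by -0.15. Macrophage markers, 9 genes, ran from 9.80 to 10.60 and from 9.44 to 10.07, with 1 gene higher and 8 lower in knockout (median -0.18). Adgre1 differed by -0.44 (-0.82 to -0.068) and Cd68 by -0.37 (-0.71 to -0.019), both with a limma adjusted p of 0.999. The part of cell make-up in the collagen values was not tested.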

How the data were processed

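RNA from 8 samples was hybridised to Affymetrix mouse arrays, 1 array per sample. The deposited log2 values were made with RMA, per the submitters' processing notes, a method that subtracts background, quantile normalises and combines probes into a probe set value; a version was not given in the sources used here. Of 45101 probe sets, 64 controls were left out, and 34945 carried 1 symbol in the platform annotation, giving 18193 genes. Differences, knockout minus control, were tested with lmFit and eBayes of limma 3.58.1 under R 4.3.3, with p-values adjusted by Benjamini-Hochberg across the 18193 genes and called under 0.05; the interaction with array set was tested likewise. Intervals of 95% are not adjusted. Chain partners were tested over all 40320 orderings of the 8 arrays. The steps were tested on simulated data. The number of arrays limits the precision, and RMA can compress differences of dim genes.

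Collagens, lists and partner pairs were chosen with earlier results of these data known. Values on every array were given for 12 main collagens of fat, for the 2 genes of each class with the smallest unadjusted p, for collagens without overlap and for the 3 with the smallest interaction p. Of each other list the 2 genes with the smallest unadjusted p were named. Genes named beyond this rule were chosen after their values were seen. Among collagens these were Col4a6, Col5a3, Col8a2, Col14a1 and the second probe sets. The others were Lcn8, Ovgp1, Foxj1, Adam7, Adgrg2, Cd24a, Sox9, Adh1, Serpinh1 and Fn1, with Pex5 as the deleted gene. Promoters came from RefSeq on GRCm38.p6, which had windows for 33 of the 42 genes. Alternatives were a variance trend, leaving out dim genes, other scalings, other probe set rules, array weights, array set, RNA quality, a looser threshold and leaving out each array.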

Additional observations from a re-analysis of the deposited data

Results flagged for a closer look

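In 6 of 84 groups of 4 arrays (42 collagens in controls and in knockouts) 1 array stood far from the other 3; chance gives about 1 in 20 such groups. The share was 7.14% for collagens and 5.43% over all genes. In 5 of the 6 the array was knockout 6, which stood apart for 11.9% of collagens and 1.53% of all genes; the collagens are not independent of each other, and this difference was not tested. Col1a2, a chain of type I collagen, read 12.62 there and between 13.04 and 13.11 on the other knockouts. Col9a1 read 5.62 against 5.80 to 5.81, Col11a1 4.33 against 4.82 to 4.90, and Col19a1 4.01 against 4.31 to 4.36. Col24a1, a dim fibrillar collagen, was higher there, at 3.44 against 3.07 to 3.12. Knockout 6 was also the array with the lowest mean of mesothelial markers, 8.07, and its part in these values was not tested. Col6a3, the type VI chain, read 11.89 on control 2 and between 11.33 and 11.38 on the other controls.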

How the results depend on the processing

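The count of collagens past the adjusted p was 0 under every alternative run, limma with a looser adjusted p of 0.1 included, and the smallest adjusted p of a named collagen was 0.552. Over 28 named collagens and 18 settings, 492 differences were computed; 43 took the opposite sign, none of them past the threshold, and 12 collagens kept their sign throughout. The cause was not tested. Within set 2 the difference was -0.023 for Col1a1, -0.0010 for Col1a2, -0.087 for Col4a1, -0.075 for Col6a2, 0.10 for Col15a1, -0.20 for Col16a1 and -0.059 for Col27a1. Within set 1 it was 0.060 for Col5a1, 0.036 for Col6a3, -0.15 for Col7a1 and 0.10 for Col19a1. With probe sets averaged it was 0.064 for Col5a1, 0.076 for Col19a1 and -0.0082 for Col22a1. Renewed quantile normalisation gave 0.00065 for Col5a1 and -0.00091 for Col7a1, subtracting array medians -0.024 for Col7a1 and -0.00060 for Col16a1, and array weights -0.0094 for Col7a1. Subtracting array medians moved the median of all genes from -0.0082 to -0.036. The median of the other collagens was -0.031 without dim genes and 0.10 within set 1.

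With 1 array left out at a time, the median difference ran from -0.046 to 0.065 for fibrillar, 0.038 to 0.20 for basement membrane, -0.021 to 0.090 for other and -0.020 to 0.095 for all collagens. Differences ran from -0.055 to 0.21 for Col1a1, -0.0043 to 0.24 for Col1a2, -0.19 to 0.014 for Col3a1, -0.047 to 0.16 for Col4a1, -0.090 to 0.10 for Col5a1, -0.19 to 0.022 for Col5a2. They ran from -0.021 to 0.28 for Col6a1, -0.032 to 0.22 for Col6a2, -0.26 to 0.044 for Col6a3, -0.021 to 0.41 for Col6a4, -0.068 to 0.088 for Col7a1 and -0.076 to 0.10 for Col16a1. With the sign kept, the difference moved by over 1.5 times in others, among them Col4a2 (0.046 to 0.25), Col11a1 (0.059 to 0.30), Col15a1 (-0.44 to -0.016) and Col19a1 (-0.28 to -0.011). Without the 2 arrays farthest from the median of the first gene, r was 0.42 for Col1a1 and Col3a1, 0.63 for Col5a1 and Col5a2, 0.91 for Col4a1 and Col4a2, 0.88 for Col4a3 and Col4a4, 0.80 for Col4a5 and Col4a6, 0.62 for Col6a1 and Col6a2 and 0.26 for Col6a1 and Col6a3, and none passed on 6 arrays. After subtracting group and set means, r was 0.68 for Col1a1 and Col3a1, 0.78 for Col6a1 and Col6a3 and -0.30 for Col9a1 and Col9a2. No paired analysis was possible because the groups share no replicate numbers. The number of arrays and the dim signal of 22 of the 42 collagens limit what could be seen; detection calls were not used here.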

Other observations

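Several genes that are no collagens had their lowest values on the same arrays as Col4a4 and Col8a2; those named here were chosen after their values were seen. Adgrg2, an adhesion receptor known from the ducts of the male tract, read 11.44, 10.21, 9.09 and 12.09 in controls and 11.62, 11.96, 11.53 and 11.84 in knockouts. Cd24a, a surface protein of epithelia and immature cells, read 10.92, 9.59, 9.06 and 11.47 in controls and 11.02, 11.53, 10.53 and 11.14 in knockouts. Both were lowest on controls 2 and 3, the arrays with the lowest Col4a3, Col4a4, Col8a2 and Col23a1. Sox9, a transcription factor of cartilage and of several epithelia, read 7.86, 7.12, 6.74 and 8.19 in controls and 7.93, 7.91, 7.76 and 7.74 in knockouts. Adh1, an alcohol dehydrogenase, read 12.55, 11.95, 11.40 and 12.81 in controls and 12.69, 12.94, 12.49 and 12.85 in knockouts, in the same order at the low end. Foxj1, the regulator of motile cilia, read 8.92, 7.25, 4.91 and 9.02 in controls and 8.95, 9.24, 8.01 and 8.37 in knockouts. Adam7, a protease of the epididymis, did not share this order: it was at 10.14 on control 1 and 9.23 on knockout 8 and at most 6.13 elsewhere.

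Serpinh1, the collagen chaperone HSP47, read 11.80, 12.25, 12.59 and 11.69 in controls and 12.30, 11.90, 12.07 and 11.95 in knockouts, with control 3 highest. Its order differed from that of Col1a1, which was highest on control 4, where Serpinh1 was lowest. Fn1, fibronectin, read 12.18, 11.39, 12.47 and 11.64 in controls and 11.12, 11.32, 12.14 and 11.90 in knockouts, and knockout 6 was its lowest array.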
